A study of Mus musculus with 6 samples.

Results

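The circadian clock is a feedback loop of transcription. The activators CLOCK and BMAL1 bind E-boxes and switch on their own repressors, the PER and CRY proteins, together with the nuclear receptors REV-ERBα (Nr1d1) and REV-ERBβ (Nr1d2), which in turn silence Bmal1 in competition with the ROR receptors. Output factors such as DBP and TEF, which bind D-boxes, pass the rhythm on to other genes, and in macrophages the REV-ERB receptors are also known to repress inflammatory genes and the enhancers that serve them. The clock genes described here are 10 repressors and output genes, Nr1d1, Nr1d2, Per1, Per2, Per3, Cry1, Cry2, Dbp, Tef and Bhlhe41, of 22377 genes in the table. They were chosen by name when their levels in wt and knockdown libraries were already known, so the differences between these groups are given as a description and carry no test. All 10 passed the filter on low counts, which 13884 genes passed.

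The RNA came from macrophages (CD45+ CD11b+ F4/80+) that the study sorted from subcutaneous tumors of LLC, the mouse Lewis lung carcinoma line, grown in Npm1+/+ and Npm1+/- mice. The sample labels name 3 libraries wt and 3 knockdown, with ko in their titles, and give no genotype. The groups are therefore called by these labels here. The mice of both groups lived under a cycle of light and dark. The labels also describe RNA from tumor tissue and a protocol for small RNAs, which differs from the sorted macrophages and full-length cDNA in the paper. The hosts were young mice of both sexes, some weeks old when the tumor cells were implanted, but the age and sex behind each library are not given. For a display of these data the paper counts fewer mice per group than there are libraries, so that the 3 libraries of a group may not be 3 animals. The time of day at which tumors were taken is not given in the sources used here. p-values therefore measure the spread between these libraries only.

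Total counts lay between 36550775 and 38147320 per library, and the levels below are CPM, which are counts scaled by library total and TMM factor. Npm1, the targeted gene, stood at 142, 380.2 and 381 CPM in wt replicates 1, 2 and 3 and at 441, 499 and 343 in the libraries labelled knockdown. Its mRNA was thus not lower in the latter, and the directions below are those between the labels. The library of wt replicate 1 stood apart, at -108 on the first principal component (67.99% of the variance), with the other 5 libraries between -4.54 and 52.0. Y-linked Ddx3y was present in each library, from 53.5 to 116 CPM, and Xist was at 2 counts or fewer, which is the pattern of male cells in each library. Over all genes, edgeR's quasi-likelihood test called 0 of 13884 (0%) at an adjusted p under 0.05, with 2112 at an unadjusted p under 0.05, and DESeq2 called 36 of 13699 (0.263%). None of the 10 clock genes was among either set of calls.

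Promoter sequences are shown because most of these genes are known targets of E-boxes, D-boxes or REV-ERB and ROR elements. RefSeq windows on GRCm38.p6, from 250 bases before to 50 bases after a transcription start, were found for 9 of the 10 genes, in 11 windows (Per1 and Tef have 2 each). Per2 had no entry. The E-box CACGTG was present in 5 of the 11 windows, against 7.15% of all 32851 windows. The E-prime box CACGTT, a weaker relative of the E-box, was present in 3 of 11, against 4.68%. The D-box TTATGNAA was present in 2 of 11, against 3.38%. The REV-ERB and ROR element, searched as TAGGTCA or TGGGTCA, was in 0 of 11, against 6.45%, and the CREB site TGACGTCA was in 0 of 11, against 1.79%. Both strands were read, so that an E-prime box on the other strand appears as AACGTG, and no 2 matches overlapped. The promoters of Nr1d1, the gene with the largest estimate among the 10 with all libraries, and of Per1, the most abundant, are printed whole, for Per1 at the first of its 2 starts only. The window at the other start of Per1 (chr11:69099902-69100201) held no motif and is not printed. The other matches are printed with 10 bases on each side, in the direction of transcription, and capitals mark the motif:
Nr1d1 promoter, chr11:98775328-98775627, minus strand: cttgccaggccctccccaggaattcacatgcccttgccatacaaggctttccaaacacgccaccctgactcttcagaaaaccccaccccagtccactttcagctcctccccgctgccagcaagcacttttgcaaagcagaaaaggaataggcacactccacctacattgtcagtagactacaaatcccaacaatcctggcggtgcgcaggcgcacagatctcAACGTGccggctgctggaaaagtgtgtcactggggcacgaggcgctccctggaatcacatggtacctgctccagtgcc
Per1 promoter at the first start, chr11:69098699-69098998, plus strand: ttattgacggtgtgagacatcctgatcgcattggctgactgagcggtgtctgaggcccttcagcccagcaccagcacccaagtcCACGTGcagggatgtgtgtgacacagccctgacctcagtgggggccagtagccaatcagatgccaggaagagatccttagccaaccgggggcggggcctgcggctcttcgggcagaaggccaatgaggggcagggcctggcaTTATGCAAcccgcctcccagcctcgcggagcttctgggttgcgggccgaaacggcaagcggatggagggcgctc
Cry1 E-box, chr10:85185099-85185124, minus strand: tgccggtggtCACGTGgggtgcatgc
Cry1 E-prime box, chr10:85185118-85185143, minus strand: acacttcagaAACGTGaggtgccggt
Cry2 E-prime box, chr2:92434220-92434245, minus strand: acatggtgggAACGTGagggggcgga
Tef E-box, chr15:81802536-81802561, plus strand: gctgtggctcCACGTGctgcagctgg
Tef E-box, chr15:81811266-81811291, plus strand: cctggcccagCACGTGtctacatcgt
Bhlhe41 E-box, chr6:145865558-145865583, minus strand: gtacgttccgCACGTGagctgggtgc
Per3 D-box, chr4:151044853-151044880, minus strand: gacccgcgcgTTATGTAAggtactcggg
Per3 D-box, chr4:151044806-151044833, minus strand: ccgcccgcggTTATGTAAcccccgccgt

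The match in Nr1d1 began 28 bases before the start, and Per1 had its E-box 166 bases and its D-box 24 bases before the start. In Cry1 the E-box and the E-prime box began 60 and 79 bases before the start. Per3 held a pair of D-boxes that began 205 and 158 bases before the start and read TTATGTAA in both. The windows of Nr1d2 and Dbp held none of these motifs. A match describes these letters only and was not examined for binding.

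**Figure D1:**
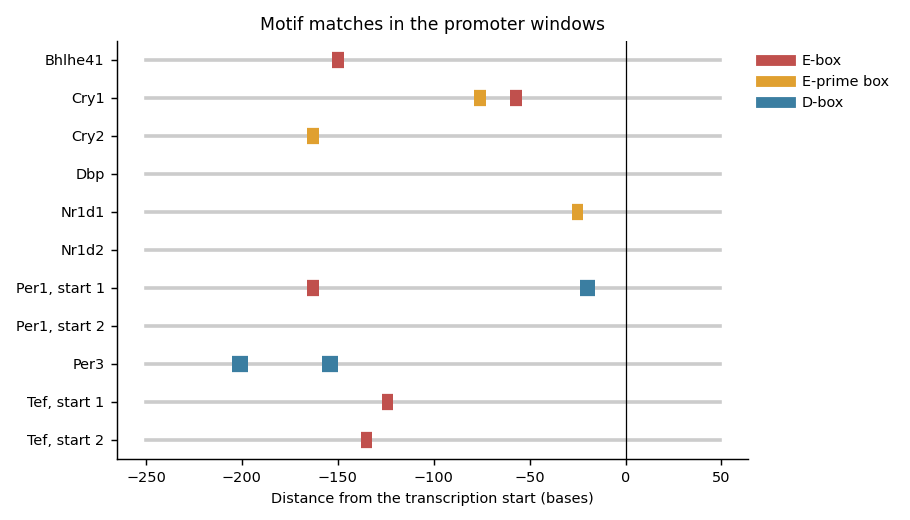
Each grey line is 1 promoter window and each colored block a motif match, plotted by its distance from the transcription start in bases. E-boxes are seen in Bhlhe41, Cry1, Per1 and Tef, E-prime boxes in Cry1, Cry2 and Nr1d1, and D-boxes in Per1 and Per3.

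The REV-ERB genes gave the highest estimates of the 10 with all 6 libraries in the edgeR fit without a block. The order was not stable, since Bhlhe41 was above Nr1d1 without wt replicate 2 (1.45 against 1.27), Per3 was above both without wt replicate 3 (1.60), and Bhlhe41 was above Nr1d2 with the replicate block (1.11 against 1.10) and without knockdown replicate 2 (0.80 against 0.75). Nr1d1 (chromosome 11 of GRCm38 from 98767932 to 98775333, minus strand) stood at 8.32, 6.68 and 5.00 CPM in wt replicates 1, 2 and 3 and at 14.4, 24.5 and 9.38 CPM in knockdown replicates 1, 2 and 3. Each library labelled knockdown was above each wt library, with replicate 3 of the knockdown group close to replicate 1 of the wt group. The mean was 6.67 ± 1.66 CPM in wt and 16.1 ± 7.71 in knockdown (SD, n = 3 each), and the fitted log2 fold change was 1.27 (standard error 0.37). It was 0.82 without knockdown replicate 2 and 1.54 without knockdown replicate 3. The 3' end of Nr1d1 overlaps that of Thra, the thyroid hormone receptor α gene, on the opposite strand, over 263 of its 3077 exonic bases, and the cDNA kit named in the paper does not mark strand. Thra stood between 16.4 and 18.5 CPM in the 6 libraries, with a log2 fold change of -0.02.

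Nr1d2 (chromosome 14, 18204054 to 18239127, minus strand) encodes the related receptor. Its level was 12.8, 15.4 and 21.6 CPM in wt replicates 1, 2 and 3 and 29.4, 53.6 and 26.9 CPM in knockdown replicates 1, 2 and 3. The groups did not overlap, and the highest library was again knockdown replicate 2. Means were 16.6 ± 4.54 and 36.6 ± 14.8 CPM (SD, n = 3 each), with a log2 fold change of 1.14 (standard error 0.31) that ranged from 0.75, without knockdown replicate 2, to 1.36 when libraries were left out in turn. Among the wt libraries, replicate 1 was the highest for Nr1d1 and the lowest for Nr1d2.

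The PER genes encode the core repressors that act with the cryptochromes. Per1 (chromosome 11, 69095217 to 69109960, plus strand), which besides the clock also responds acutely to glucocorticoid and cAMP signals, was at 597, 365 and 396 CPM in wt replicates 1, 2 and 3 and at 368, 328 and 454 CPM in knockdown replicates 1, 2 and 3. The groups overlapped, and the highest value belonged to wt replicate 1. Its log2 fold change was -0.24 (standard error 0.22), which became 0.007 without that library, so that the direction of Per1 rested on 1 library. Per2 (chromosome 1, 91415982 to 91459324, minus strand) was at 5.99, 4.40 and 4.04 CPM in wt and at 6.79, 7.49 and 7.19 in knockdown. The knockdown libraries were all above the wt libraries and lay closely together, and the mean was 4.81 ± 1.04 against 7.16 ± 0.353 CPM (SD, n = 3 each). The log2 fold change of Per2 was 0.57 (standard error 0.23) and ranged from 0.45 to 0.76 when single libraries were left out.

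Per3 (chromosome 4, 151003652 to 151044665, minus strand) was the scarcest of the 10. It had 14, 12 and 40 counts in wt replicates 1, 2 and 3 and 47, 64 and 24 counts in knockdown replicates 1, 2 and 3. The groups overlapped, since wt replicate 3 exceeded knockdown replicate 3. For a count of 12 the exact 95% Poisson interval runs from 6.20 to 21.0, and for a count of 24 from 15.4 to 35.7, so that counting error alone spans much of the difference between some libraries. The intervals for counts of 14 (7.65 to 23.5) and 47 (34.5 to 62.5) do not overlap. Its log2 fold change of 0.90 (standard error 0.58) ranged from 0.61, without knockdown replicate 2, to 1.60, without wt replicate 3. With limma on FPKM plus 1 it was 0.12, but the FPKM of Per3 was at most 0.257, so that adding 1 shrinks its fold change by construction.

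The cryptochromes, partners of the PER proteins and direct inhibitors of CLOCK and BMAL1, differed from one another. Cry1 (chromosome 10, 85131700 to 85185064, minus strand) was at 28.1, 34.5 and 27.7 CPM in wt replicates 1, 2 and 3 and at 28.1, 29.8 and 24.1 CPM in knockdown replicates 1, 2 and 3. The groups overlapped in part, since wt replicate 2 was above each knockdown library and knockdown replicate 3 below each wt library, with a fitted difference of -0.14 on the log2 scale (standard error 0.15). Cry2 (chromosome 2, 92403646 to 92434043, minus strand) was at 10.5, 9.58 and 9.12 CPM in wt and at 15.6, 18.7 and 12.4 CPM in knockdown. The wt libraries lay close together, with a coefficient of variation of 7.17%, each knockdown library was higher, and the means were 9.73 ± 0.697 and 15.6 ± 3.12 CPM (SD, n = 3 each). The log2 fold change of Cry2 was 0.68 (standard error 0.20), from 0.52 to 0.81 over fits that left out 1 library.

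Dbp and Tef encode transcription factors of the PAR bZIP family, which bind D-boxes and carry the output of the clock. Dbp (chromosome 7, 45705088 to 45710203, plus strand) had 56, 36 and 27 counts in wt replicates 1, 2 and 3 and 77, 78 and 37 counts in knockdown replicates 1, 2 and 3. Knockdown replicate 3 lay among the wt libraries. The log2 fold change of Dbp was 0.55 (standard error 0.44), from 0.30 without wt replicate 3 to 0.89 without wt replicate 1, and 0.23 with limma on FPKM plus 1. Dbp shares 539 of its 2993 exonic bases with Sphk2 on the opposite strand, a gene with 1243 to 2210 counts per library and its highest count in wt replicate 1, so the counts of Dbp are uncertain. Tef (chromosome 15, 81802421 to 81826863, plus strand) was at 11.8, 8.06 and 8.63 CPM in wt and at 13.8, 17.2 and 10.1 CPM in knockdown. Here too knockdown replicate 3 lay within the wt range, and Tef had a log2 fold change of 0.53 (standard error 0.25), from 0.33 without knockdown replicate 2 to 0.71 without wt replicate 1.

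Bhlhe41 (chromosome 6, 145858243 to 145865558, minus strand) encodes DEC2, an E-box repressor that opposes CLOCK and BMAL1. It was at 1.94, 6.14 and 4.12 CPM in wt replicates 1, 2 and 3 and at 8.67, 10.6 and 5.61 CPM in knockdown replicates 1, 2 and 3. Knockdown replicate 3 was below wt replicate 2. On the opposite strand the gene model Gm43909 covers 1280 of the 6720 exonic bases of Bhlhe41. The counts of Bhlhe41 are therefore uncertain as well, and Gm43909 has no counts under that name in the deposited data. The log2 fold change was 1.03 (standard error 0.44) and ranged from 0.69, without wt replicate 1, to 1.45, without wt replicate 2. With limma on FPKM plus 1 it was 0.58. Wt replicate 1 was the lowest library for Bhlhe41 as it was for Nr1d2, whereas it was the highest of the wt libraries for Nr1d1, Per1, Per2, Cry2, Dbp and Tef.

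**Figure D2:**
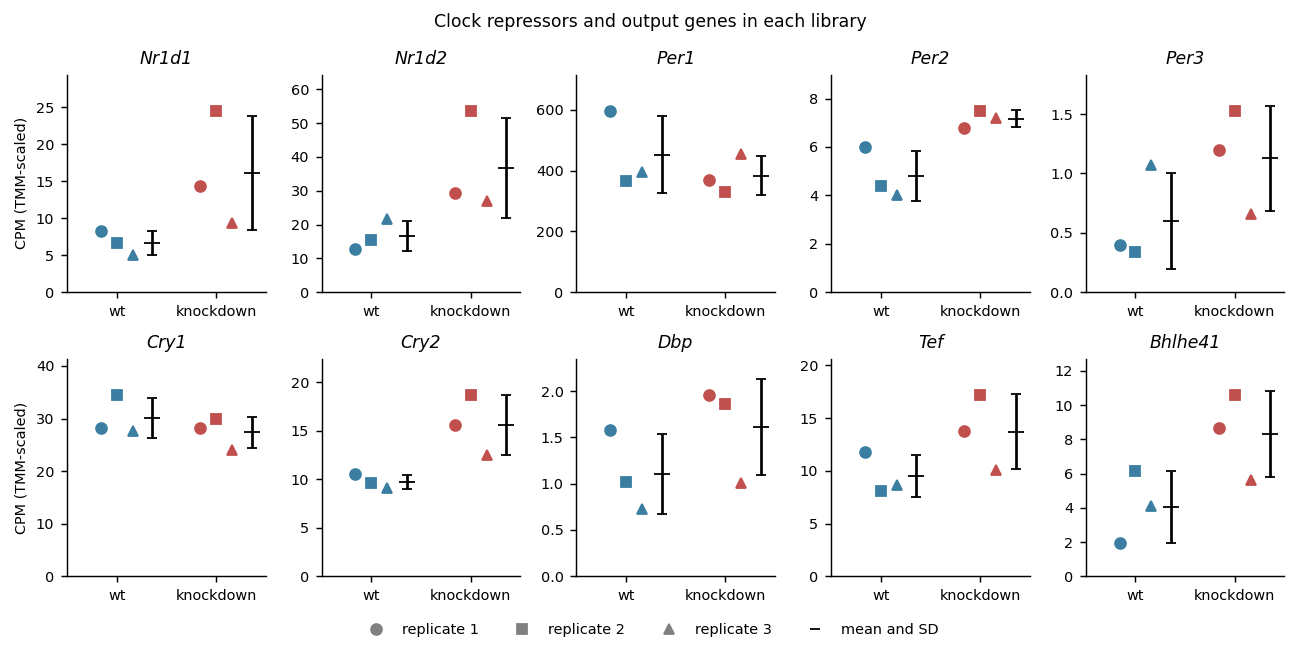
Each panel shows 1 gene in CPM, with wt libraries in blue, knockdown libraries in red, the symbol giving the replicate number, and a line with bars for the mean and SD (n = 3). Nr1d1, Nr1d2, Per2 and Cry2 have knockdown libraries that are all above the wt libraries, whereas Per1, Per3, Cry1, Dbp, Tef and Bhlhe41 overlap.

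Of the 10 genes, 8 had a higher estimate in knockdown and 2 a lower one, with a median log2 fold change of 0.63. Over all genes tested, 52.1% had a higher estimate and the median was 0.02. In 4 of the 10 each knockdown library was above each wt library (Nr1d1, Nr1d2, Per2 and Cry2), which was so for 13.3% of all genes tested, and in 0 of the 10 each was below, against 12.6% of all genes. On the deposited FPKM values, which are not TMM-scaled, the number was also 4, with 18.6% of all genes higher and 6.88% lower. Since the genes were chosen with these values known, the shares are set side by side as a description. Without knockdown replicate 3, the number was 8 of 10, where the share of all genes was 26.9%. Knockdown replicate 2 was the highest library for 7 of the 10 genes, and wt replicate 3 the lowest for 4. The shares of all genes with these extremes were not counted. Knockdown replicate 2 also had the most genes with a count (19242) and the highest value on the first principal component (52.0).

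**Figure D3:**
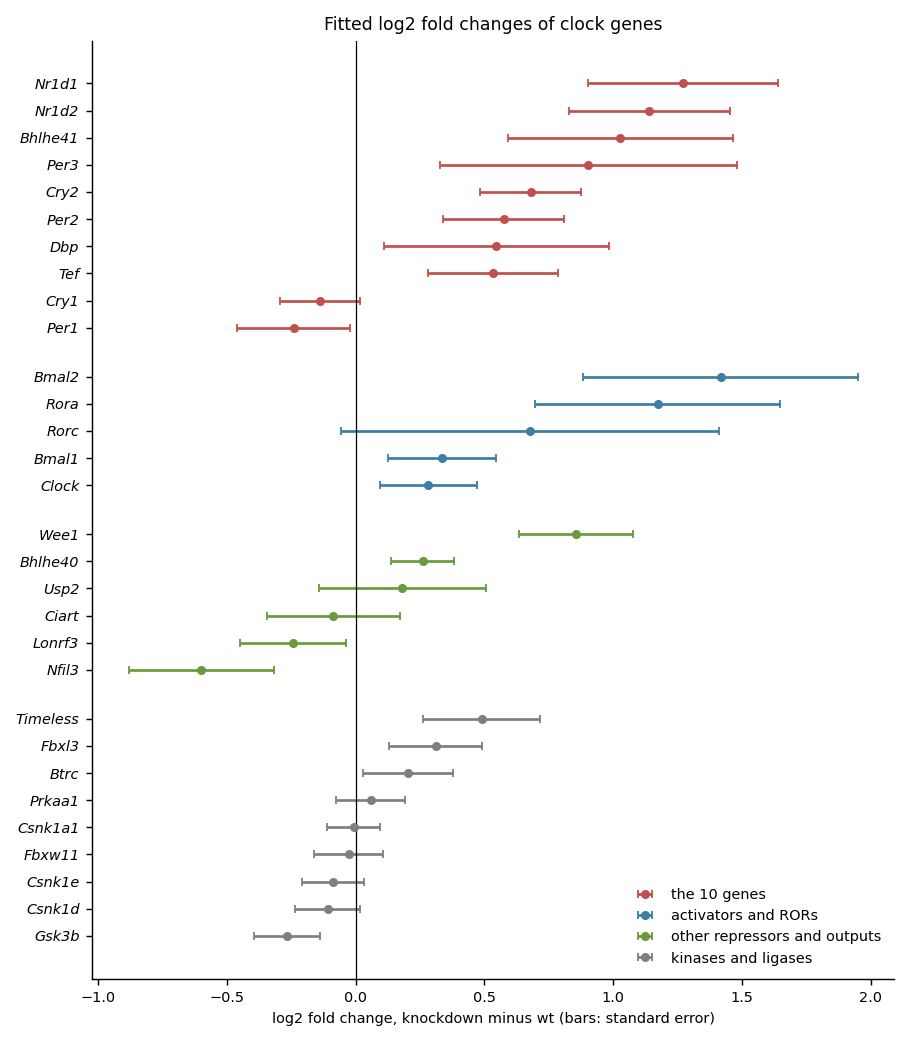
Points are fitted log2 fold changes (knockdown minus wt, horizontal axis) and bars are standard errors, with the 10 genes in red and 3 further groups of clock genes below. The 10 range from -0.24 for Per1 to 1.27 for Nr1d1, and the kinases and ligases from -0.27 to 0.49.

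To compare the genes with each other, levels per length were taken from the deposited FPKM values. Per1 was the most abundant at 48.4 ± 8.89 FPKM (SD over all 6 libraries), above 90.7% of the genes tested. Cry1 followed at 7.24 ± 1.01, then Nr1d2 at 5.70 ± 3.71, Nr1d1 at 4.29 ± 3.15 and Cry2 at 3.12 ± 1.21 FPKM. Tef (1.69 ± 0.653), Bhlhe41 (1.04 ± 0.604), Per2 (0.992 ± 0.3003), Dbp (0.506 ± 0.221) and Per3 (0.132 ± 0.0823 FPKM) were lower, and Per3 was above only 6.12% of the genes tested. The FPKM of Per1 exceeded that of Cry1 in 6 of 6 libraries, and so did Cry2 that of Tef, Tef that of Bhlhe41, Per2 that of Dbp and Dbp that of Per3. The remaining neighbors traded places in at least 1 library. Cry1 was above Nr1d2, Nr1d2 above Nr1d1 and Nr1d1 above Cry2 in 5 of 6 libraries each, and Bhlhe41 above Per2 in 4 of 6. The order also differed between groups. The mean of Nr1d2 was 3.27 FPKM in wt, below Cry1 at 7.18, and 8.13 in knockdown, above Cry1 at 7.30. Per2 was above Bhlhe41 in wt, at 0.745 and 0.631 FPKM, and below it in knockdown, at 1.24 and 1.45 FPKM. In knockdown replicate 2, Nr1d2 and Nr1d1 reached 12.7 and 10.2 FPKM and passed Cry1 at 8.60.

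**Figure D4:**
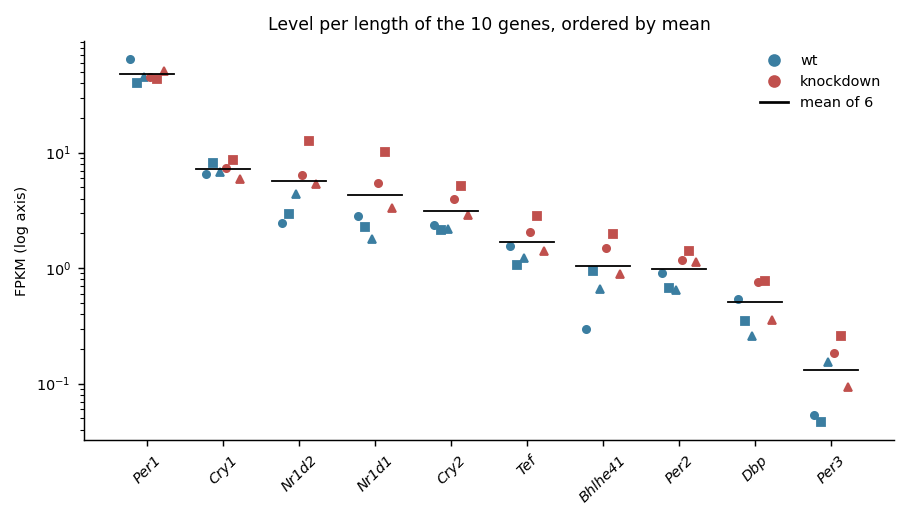
Points are FPKM values per library on a log axis for the 10 genes, ordered by their mean over 6 libraries (black line), with wt in blue and knockdown in red. Per1 stands apart at 39.7 to 64.9 FPKM, and Per3 lies lowest at 0.0464 to 0.257.

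The activators and ROR receptors form the other arm of the loop, and none of those tested had a lower estimate in knockdown. Of 7 listed genes 5 were tested (Npas2 and Rorb were too low), and 0 passed edgeR's quasi-likelihood test in either direction, with 2 at an unadjusted p under 0.05. Their median log2 fold change was 0.68. Bmal1, the partner of CLOCK and a target that REV-ERB receptors silence, was at 10.3, 9.41 and 9.22 CPM in wt replicates 1, 2 and 3 and at 11.6, 15.2 and 9.71 CPM in knockdown replicates 1, 2 and 3. The groups overlapped, with a log2 fold change of 0.33 and a standard error of 0.21 (edgeR, adjusted p = 0.396). Clock had a log2 fold change of 0.28 (standard error 0.19, adjusted p = 0.417 in the same fit). Rora, a ROR receptor that is also abundant in T cells and innate lymphoid cells, was at 10.5, 16.7 and 30.5 CPM in wt and at 34.9, 69.9 and 25.2 CPM in knockdown. Wt replicate 3 exceeded knockdown replicate 3, with an estimate of 1.17 on the log2 scale (standard error 0.48, adjusted p = 0.328 by edgeR). Bmal2, a relative of Bmal1, was at 0.562, 2.40 and 2.03 CPM in wt and at 5.52, 4.89 and 2.93 CPM in knockdown, without overlap (log2 fold change 1.42, standard error 0.53, adjusted p = 0.328).

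Of 7 further repressors and output genes, 6 were tested (Hlf was too low), 0 passed edgeR's quasi-likelihood test and 1, Wee1, had an unadjusted p under 0.05. The estimates were split 3 to 3, with a median log2 fold change of 0.05. Wee1, a cell cycle kinase under clock control, was at 11.6, 20.1 and 17.3 CPM in wt and at 31.6, 31.3 and 25.7 CPM in knockdown, without overlap (log2 fold change 0.85, standard error 0.22, adjusted p = 0.328). Bhlhe40, which encodes DEC1 and is the paralog of Bhlhe41, was at 827, 882 and 815 CPM in wt and at 979, 1057 and 986 CPM in knockdown, also without overlap but with a smaller log2 fold change of 0.26 (standard error 0.12, adjusted p = 0.333). Nfil3, a repressor that competes with DBP and TEF for D-boxes, had a log2 fold change of -0.60 (standard error 0.28, adjusted p = 0.334). Its groups overlapped, from 533 to 753 CPM in wt and from 258 to 557 in knockdown. Among 10 kinases, ubiquitin ligases and other regulators of PER and CRY stability, 9 were tested and 0 passed, with 0 at an unadjusted p under 0.05, and their median log2 fold change was -0.01.

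Macrophage markers were present in each library, from Mertk at 5.13 to 9.52 CPM to Lyz2 between 5667 and 14144 CPM. Transcripts of other cells were present beside them. The summed level of 6 T cell markers, of 7 listed, was 21.4, 31.3 and 92.8 CPM in wt replicates 1, 2 and 3 and 83.7, 202 and 73.1 CPM in knockdown replicates 1, 2 and 3. All 6 markers were detected in each library and had higher estimates in knockdown (0 of 6 called by edgeR's quasi-likelihood test, 3 at an unadjusted p under 0.05). Knockdown replicate 2 was the highest library for this sum. The summed level of 10 macrophage markers lay between 15825 and 21188 CPM in wt and between 9431 and 15733 in knockdown, lowest in knockdown replicate 2, and all 10 had lower estimates (0 called, 5 at an unadjusted p under 0.05). Most of this sum was Lyz2 in each library. The sum of 10 fibroblast markers was 35.8, 490 and 284 CPM in wt and 696, 551 and 353 in knockdown, and 9 of 10 had higher estimates (0 called, 4 at an unadjusted p under 0.05). Most of it was Col3a1, at 19.0, 426 and 245 CPM in wt and 604, 474 and 308 in knockdown. Acta2 went the other way (log2 fold change -0.63). The sum of 6 neutrophil markers was between 1622 and 1826 CPM in wt and between 691 and 1423 in knockdown, with 6 of 6 lower estimates (0 called, 3 at an unadjusted p under 0.05). The 6 endothelial markers summed to between 28.2 and 37.2 CPM, and most of this was Pecam1 in each library. Of the 5 tested, 3 had higher and 2 lower estimates (0 called, 0 at an unadjusted p under 0.05). Pecam1 was lower in each knockdown library than in each wt library (log2 fold change -0.32). Cdh5 was at 0.787 to 4.26 CPM, with a log2 fold change of 0.71 and overlapping groups. The sum of the epithelial or carcinoma markers was 36.1, 138 and 80.4 CPM in wt and 192, 183 and 129 CPM in knockdown. Most of it was Krt8, a keratin of simple epithelia, at 9.90, 117 and 59.1 CPM in wt and 171, 165 and 105 CPM in knockdown (log2 fold change 1.25, edgeR adjusted p = 0.368), although in wt replicate 1 Cdh1 was higher, at 24.3 CPM. Of 8 listed markers 4 were tested, with 2 higher and 2 lower estimates (0 called, 0 at an unadjusted p under 0.05). Cdh1 and Krt7 went the other way from Krt8, with log2 fold changes of -0.41 and -1.03. Krt7 was low, at 0.246 to 0.928 CPM, and each knockdown library was below each wt library. Krt18 was present in each library (log2 fold change 0.76), and Cldn4 and Krt19 were each at 0 in 5 of 6 libraries and at 1 count in the other. In bulk RNA, fewer cells of a type cannot be told apart from less RNA per cell, and the part of these cells in the levels of the clock genes was not tested.

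**Figure D5:**
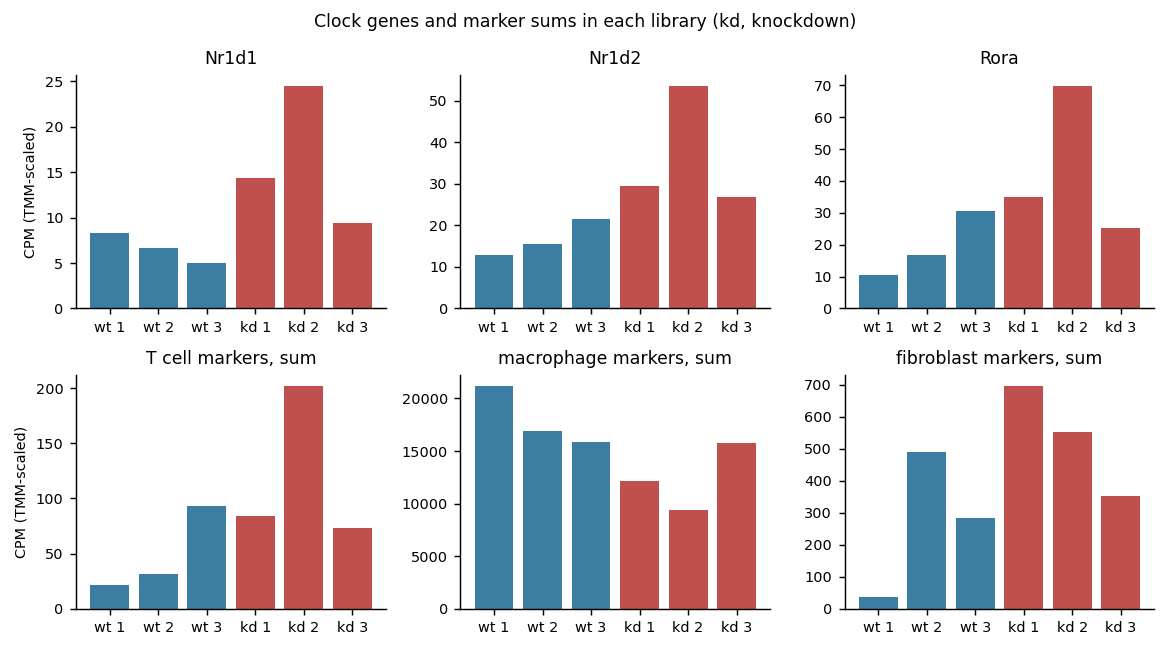
Bars are CPM in each library (wt in blue, knockdown, kd, in red) for Nr1d1, Nr1d2 and Rora and, in the lower row, for the summed markers of T cells, macrophages and fibroblasts. Knockdown replicate 2 is the highest library for the 3 genes and for the T cell sum at 202 CPM, and the lowest for the macrophage sum at 9431 CPM.

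The genes most like Nr1d1 were sought as those with the smallest mean absolute difference of centred log2 CPM over the 6 libraries. They were Wnt10b (0.097), Lsmem1 (0.12), Tedc2 (0.17), Cdc42bpg (0.17) and Arl4d (0.20), where the median over all genes tested was 0.68. Wnt10b and Lsmem1 were low, at 0.214 to 1.19 and 0.241 to 1.46 CPM. Of the other clock genes among the 10, Cry2 was the nearest to Nr1d1 (0.30, rank 47 of all genes), followed by Tef (rank 94), Dbp (rank 112) and Nr1d2 (rank 172), and Per1 was the farthest (0.77, rank 9804). For Dbp, the 5 nearest genes included Tuft1 (0.088), Zfp296 (0.15), Gm51546 (0.16) and Nr6a1 (0.16), against a median of 0.52, and the nearest of the 10 was Tef (0.22, rank 34). The likeness rests on 6 libraries that share their depth, scaling and group labels.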

How the data were processed

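RNA-seq counts, raw whole numbers for each gene, were deposited with FPKM values. For all 22377 genes the deposited FPKM could be recomputed from count, total count and a single gene length (tolerance 1 base). The build is mm10 per the labels. The aligner, the counting tool and the annotation are not given in the sources used here. Coordinates are those of GENCODE M21 on GRCm38, and older symbols (Arntl, Arntl2) were matched by NCBI Gene number. Counts were filtered with filterByExpr, scaled by TMM and fitted with edgeR 4.0.16 in R 4.3.3 (glmQLFit, glmQLFTest) over all 6 libraries, with Benjamini-Hochberg adjustment over 13884 genes and a threshold of 0.05. Standard errors were derived from the fold change and its F statistic, and log2 CPM used a prior count of 2. The fit was tested on simulated data. Alternatives used DESeq2 1.42.0, limma 3.58.1, other scalings and filters, a replicate block and each library left out. Poisson intervals cover counting error only. The genes named are the 10 genes, the listed pathway and marker genes, overlapping genes and the 5 genes most like Nr1d1 and Dbp, of which 1 is not reported here. These genes and lists were chosen with earlier results of these data known.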

Additional observations from a re-analysis of the deposited data

How the results depend on the processing

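With RLE or upper quartile scaling, without a filter, with at least 10 counts in every library, and with limma, edgeR or limma called 0 genes, 0 of the 10 clock genes and 0 other clock genes, whereas DESeq2 called 36 genes and none of the 10. The median log2 fold change of the 10 ranged from 0.39 to 0.67 over these fits. The estimate of Cry1 reversed, to 0.012, when limma was run with a pseudocount of 1 or of 0.1 added to FPKM. With 1 added, Per3 was 0.12, Dbp 0.23, Bhlhe41 0.58, Per2 0.36 and Per1 -0.07, and with 0.1 added Per3 was 0.59 and Per1 -0.07. With 0.1 the median over all genes tested was 0.16. A pseudocount of 1 shrinks by construction the fold changes of genes with a low FPKM, such as Per3, Dbp and Bhlhe41. With 1 library left out, 0 genes were called in each fit, and 0 of the other clock genes. The median of the 10 then ranged from 0.53 to 0.80, the number without overlap from 4 to 8, and Per1 from -0.38 to 0.00696, the latter without wt replicate 1. Over all genes, those higher without overlap ranged from 2099 of 14070, without knockdown replicate 2, to 3846 of 14290, without knockdown replicate 3. By median instead of mean FPKM, Per2 ranked 7 and Bhlhe41 8 of the 10. The replicate numbers gave no sign of pairing the libraries, with correlations of deviations of -0.24, 0.060 and -0.34 for replicates 1, 2 and 3. Such values from 3 libraries per group cannot exclude a pairing. With the replicate block 0 genes were called and the median of the 10 was 0.63. The cause of these differences was not tested. Counts of 12 to 78 limit Per3 and Dbp.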

Other observations

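Per1 is also known to respond to glucocorticoids and to acute stimulation, so genes of these responses were examined beside it. Of 8 genes that respond to glucocorticoids, Per1 included, 0 passed edgeR's quasi-likelihood test, 1 had an unadjusted p under 0.05, 3 had a higher estimate and 5 a lower one, with a median log2 fold change of -0.11. Fkbp5, which encodes a chaperone of the glucocorticoid receptor, was at 80.6, 55.0 and 63.0 CPM in wt replicates 1, 2 and 3 and between 65.6 and 67.4 in knockdown. Sgk1, a kinase induced by glucocorticoids and by osmotic stress, was at 316, 315.6 and 284 CPM in wt and at 432, 407 and 399 in knockdown, without overlap (log2 fold change 0.44, standard error 0.11, adjusted p = 0.328 by edgeR). Dusp1 had the lowest estimate of the 8, with overlapping groups (log2 fold change -0.56, standard error 0.26, adjusted p = 0.331 by edgeR). Wt replicate 1, the highest library for Per1, was also the highest for Fkbp5, Klf9, Zbtb16 and Dusp1, but not for Sgk1, Tsc22d3 and Errfi1.

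Of 8 immediate early genes, 0 passed the same test, 1 (Nr4a1) had an unadjusted p under 0.05, and the estimates were split 4 to 4. Wt replicate 1, the highest library for Per1, was also the highest for Fos at 2219 CPM, against 1144 and 1450 in the other wt libraries and 800 to 1315 in knockdown. It was likewise the highest for Jun, Junb, Ier2, Atf3 and Nr4a1, but not for Fosb, which was at 375 CPM there, below the 496 CPM of wt replicate 2 and the 493 to 537 CPM of the knockdown libraries. Egr1 stood at 521 CPM in this library and at 236 and 226 in the other wt libraries, with 356 to 527 in knockdown. The part of these responses in the level of Per1 was not tested.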
